A study of Arabidopsis thaliana with 20 samples.

Results

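Cytochromes P450 and glutathione transferases (GSTs) were taken from the array as all probe sets listed with a single gene whose symbol is a P450 name (such as CYP71B26) or a GST name (such as GSTF4). The rule used no measured value, but the genes were chosen with earlier results of these data known. It gave 35 probe sets for 35 genes, of 22746 probe sets that are not array controls. Of these, 22 are P450s and 13 are GSTs. The P450s are mostly of a single subfamily, CYP71B, with 18 genes, and the other 4 are CYP51G2, CYP78A9, CYP79A2 and CYP84A4. The GSTs comprise 11 of the tau class, GSTF4 of the phi class and GSTL3 of the lambda class. The RefSeq gene table of Arabidopsis (assembly TAIR10.1) holds 272 genes whose symbols have either form, 225 P450s and 47 GSTs, so the 35 genes are a small share of both families. RefSeq classes CYP71B27 and CYP51G2 as transcribed pseudogenes.

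P450s are heme enzymes, mostly anchored in the endoplasmic reticulum, that insert an oxygen atom into small molecules with electrons from a reductase. Plants use them in the synthesis of hormones, sterols, wall phenolics and defence compounds. GSTs join the tripeptide glutathione to reactive or oxidised molecules, whose conjugates are carried into the vacuole, and the tau and phi classes are typical of plants. Lambda GSTs are known instead as thiol transferases that act on glutathionylated molecules.

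The samples were cells of Arabidopsis thaliana, ecotype Columbia, cut by laser from roots that carried the root-knot nematode Meloidogyne incognita. Seedlings 3 weeks old, 5 to a plate, had received 1000 second-stage juveniles, and cells were taken 21 days later. The 4 groups were giant cells with the One-Direct kit, control cells with the One-Direct kit, giant cells with the Pico kit and control cells with the Pico kit, with 3 biological samples each. In every group 1 sample was split over 3 technical arrays, which were averaged and counted as 1 sample, so 20 arrays gave 12 samples. Giant cells are the swollen, multinucleate feeding cells that the nematode maintains in the vascular tissue, and a sample held about 80 of them (5000000 square micrometres of section). A control sample held about 150 root cells (13000000 square micrometres) from stretches of the infested roots that carried no nematode, so no plant was free of infestation and the control cells are not of a single named type. Cell type and the amount captured cannot be told apart. Both kits are NuGEN WT-Ovation RNA amplification kits. Cells for One-Direct were lysed directly and RNA for Pico was first isolated on a column, so the kit and the isolation step cannot be told apart. Nothing in the labels says which plants a sample came from, and a p-value here speaks only of how far these samples spread, in part perhaps for technical reasons.

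The values are MAS5 signal intensities on a linear scale, and array medians lay between 166.5 and 311.3. Changes are differences of mean log2(signal + 16), giant minus control cells unless another contrast is named, each with its SE and with n = 3 samples per group. A change is called at a limma adjusted p under 0.05, with Benjamini-Hochberg adjustment over all 22746 probe sets. All 12 samples entered the fit, whose estimate of spread is shared by the groups. Samples of a group correlated at r of 0.821 to 0.852 (giant, One-Direct), 0.690 to 0.851 (control, One-Direct), 0.935 to 0.968 (giant, Pico) and 0.920 to 0.935 (control, Pico). Control One-Direct sample 1 stood apart, at 0.741 and 0.690 to the others of its group. The median change over all probe sets was 0.24 over both kits, 0.05 in Pico and 0.43 in One-Direct, and the members' changes are read against these values. In bulk samples, fewer cells of a type and less RNA per cell cannot be told apart.

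Most of the 35 genes gave dim signals. Only GSTU27 and GSTL3 lay above the array median in all 12 samples, and 11 genes lay above it in 0 samples. A total of 17 genes lay above the array median in at least 3 samples. In 10 genes a group's mean signal was under 16, the pseudocount, so that changes of these genes are compressed. No gene was removed for a low signal.

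Over both kits, 6 of the 35 genes were called, 5 lower and 1 higher in giant cells. The lower ones were GSTF4, the tau-class GSTU27 and GSTU23, and the P450s CYP71B26 and CYP71B37, and the higher one was GSTL3. Over all probe sets 11.7% were called, 5.6% lower and 6.09% higher. The median change of the 35 genes was -0.58, against 0.24 over all probe sets. The GST median was -0.63 and the P450 median -0.10. At an unadjusted p under 0.05, 13 of the 35 genes (37.1%) passed, against 27.5% of all probe sets. Without giant Pico sample 1, or without control Pico sample 1, only GSTF4, CYP71B26 and GSTL3 were called, against 6.75% and 7.98% of all probe sets in that order. With sample 1 left out of both groups of One-Direct, 12 genes were called, all 6 of these among them, and the share of all probe sets called was 18% in that setting.

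Markers of other root cell types and ratios of 3' to 5' signal stand beside these calls. Not all of them differed between giant and control cells. The marker lists for other root cell types had 4 of 44 genes on the array. SWEET11, a sucrose exporter of phloem cells, had signals with Pico of 5.81, 80.9 and 1.28 in giant cells, against 2329, 1428 and 986 in control cells. In One-Direct they were 95, 108 and 17.5 in giant cells, against 169, 669 and 195 in control cells. SWEET11 thus lay lower in giant cells in all samples, and it fell by 3.73 over both kits (limma adjusted p = 0.000483). The root hair expansins EXPA7 and EXPA18 had a summed signal of 32.4 to 96.6 in giant cells and 32.7 to 78.9 in control cells with One-Direct, and of 12.9 to 35.5 in giant cells and 12.8 to 151 in control cells with Pico. LBD16, of lateral root founder cells, ran from 149 to 399 in giant cells and 46.6 to 391 in control cells with One-Direct, and from 67.2 to 183 in giant cells and 155 to 263 in control cells with Pico. Over both kits the limma adjusted p was 0.765 for EXPA7, 0.426 for EXPA18 and 0.801 for LBD16. The log2 ratio of 3' to 5' signal of GAPDH averaged 2.27 in giant and 3.46 in control cells with One-Direct, and 1.20 in giant and 2.34 in control cells with Pico. For this pair of GAPDH probe sets the difference was -1.17 (exact permutation test within kits, two-sided, p = 0.005, adjusted over 6 ratios 0.03). The other 5 ratios had adjusted p of 0.705 to 0.995 in the same exact permutation test. Among them was another pair of probe sets for GAPDH itself, whose difference was -0.27 (adjusted p = 0.71 in that permutation test). A difference in the ends of GAPDH RNA was thus not shown by both of its pairs. The part of cell make-up and of RNA ends in the results was not tested.

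**Figure D1:**
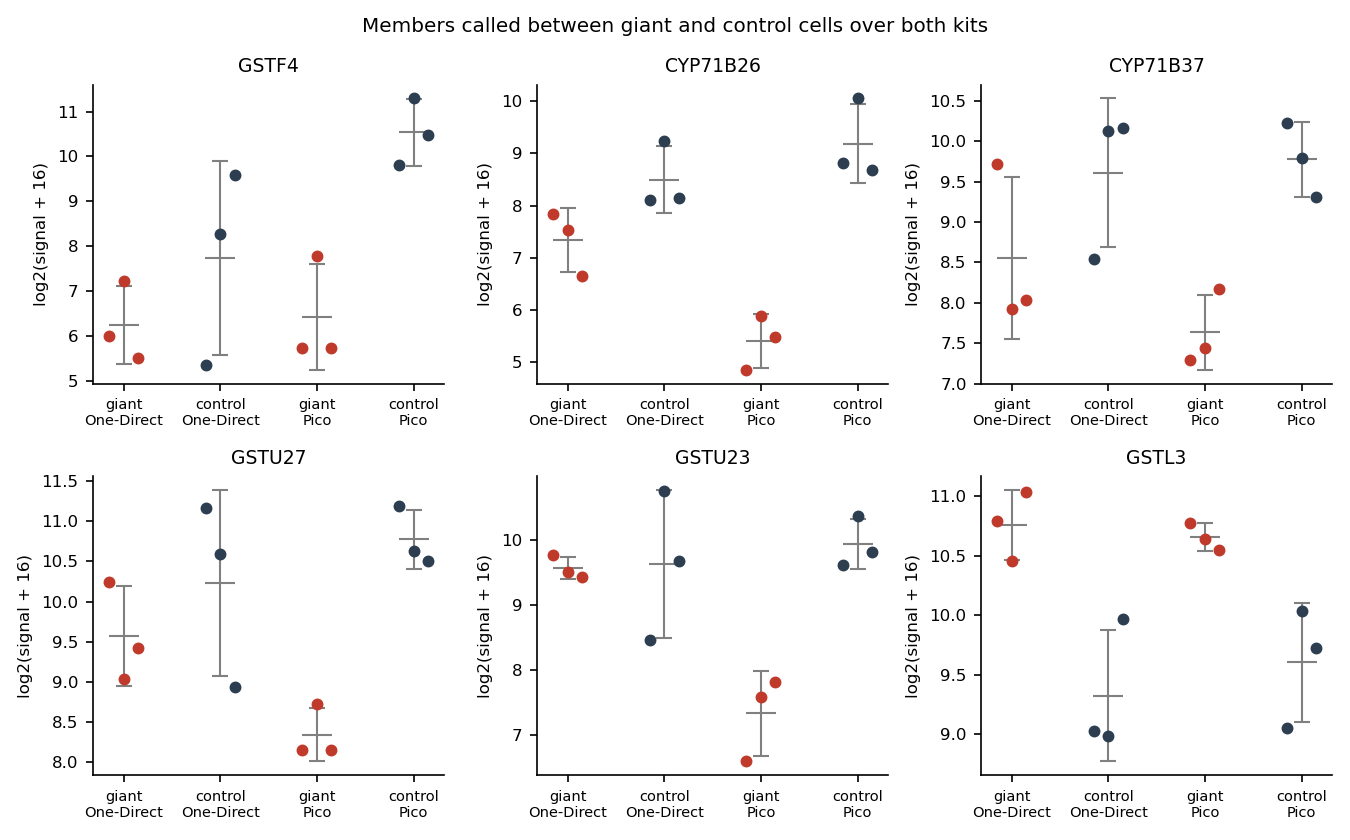
Signals of the 6 genes called over both kits, one panel per gene, on a log2(signal + 16) axis. Dots are biological samples and bars are group means with 1 SD (n = 3), in the order giant and control cells with One-Direct, then giant and control cells with Pico. CYP71B26 and GSTL3 have no overlap between giant and control cells in either kit. Of all probe sets, 3.07% were apart and lower in giant cells in both kits, and 5.5% apart and higher.

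GSTF4 (AT1G02950, chromosome 1), the phi-class gene among the 35, had the largest change over both kits. Its signals with Pico were 37.3, 204 and 37.4 in giant cells, against 886, 2507 and 1418 in control cells. With One-Direct they were 48.1, 132 and 29.8 in giant cells, against 24.6, 294 and 751 in control cells. All giant samples lay below all control samples with Pico, whereas with One-Direct control sample 1 lay below every giant sample. GSTF4 fell by 2.80 log2 units over both kits (SE 0.64, limma adjusted p = 0.012), a 6.98-fold lower signal. The change was -4.12 in Pico (SE 0.90, limma adjusted p = 0.0143) and -1.49 in One-Direct (SE 0.90, limma adjusted p = 0.335). The Pico call was lost without giant Pico sample 1 or 3 or control Pico sample 2 or 3, at limma adjusted p of 0.0718, 0.0733, 0.063 and 0.0507 in that order. The 3 technical arrays of control One-Direct sample 2 read 1493, 177 and 86.8 for this gene.

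GSTU27 (AT3G43800, chromosome 3) lay above the array median in every sample. Its signals with Pico were 268, 408 and 267 in giant cells, against 2319, 1567 and 1439 in control cells. The One-Direct signals were 1201, 510 and 670 in giant cells, against 2290, 1534 and 473 in control cells. The Pico groups did not overlap, and with One-Direct control sample 3 lay below every giant sample. GSTU27 fell by 1.55 over both kits (SE 0.38, limma adjusted p = 0.0192) and by 2.43 in Pico (SE 0.54, limma adjusted p = 0.0162). In One-Direct the change was -0.66 (SE 0.54, limma adjusted p = 0.48). Over both kits the call was lost without giant One-Direct sample 2, giant Pico sample 1, giant Pico sample 3 or control Pico sample 1, at limma adjusted p of 0.0504 to 0.0534. In Pico it was lost without giant sample 1, giant sample 3 or control sample 1, at limma adjusted p of 0.072 to 0.0745.

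GSTU23 (AT1G78320, chromosome 1) was called over both kits and in Pico. With Pico its signals were 81.1, 177 and 209 in giant cells, against 766, 1294 and 886 in control cells. In One-Direct they were 853, 710 and 674 in giant cells, against 337, 1698 and 799 in control cells. The Pico groups were well apart, and the One-Direct giant samples lay within the range of the control samples. The change was -1.33 over both kits (SE 0.38, limma adjusted p = 0.0372), -2.59 in Pico (SE 0.54, limma adjusted p = 0.0106) and -0.06 in One-Direct (SE 0.54, limma adjusted p = 0.96). Leaving out a single sample ended the call over both kits for 9 of the 12 samples, at limma adjusted p of 0.0534 to 0.104, and it held only without giant One-Direct sample 1, control One-Direct sample 1 or control One-Direct sample 3. In Pico the call was lost without giant sample 1 (limma adjusted p = 0.0679).

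GSTL3 (AT5G02790, chromosome 5), the lambda-class enzyme, was the only one of the 35 genes called higher. With One-Direct its signals were 1762, 1386 and 2087 in giant cells, against 505, 492 and 984 in control cells. With Pico they were 1742, 1576 and 1480 in giant cells, against 516, 1035 and 830 in control cells. Giant cells lay above control cells in every sample of both kits, and giant cells spanned a similar range with each kit. GSTL3 rose by 1.24 over both kits (SE 0.29, limma adjusted p = 0.0148), a 2.37-fold higher signal. The change was 1.44 in One-Direct (SE 0.41, limma adjusted p = 0.0662) and 1.05 in Pico (SE 0.41, limma adjusted p = 0.183). GSTL3 kept its call over both kits under all 25 alternative settings, which include leaving out each sample in turn.

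The other 9 GSTs, all of the tau class, did not pass over both kits. GSTU22 (AT1G78340) came nearest, with a change of -1.18 (SE 0.37, limma adjusted p = 0.0512). Its signals with Pico were 24.3, 27.1 and 15.7 in giant cells, against 252, 155 and 238 in control cells, and the change there was -2.57 (SE 0.52, limma adjusted p = 0.00901). The One-Direct signals were 227, 646 and 442 in giant cells, against 148, 480 and 560 in control cells, a change of 0.22. The Pico groups were apart and the One-Direct groups overlapped. The Pico call held under all 25 alternative settings.

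GSTU28 (AT1G53680) had changes of opposite sign in the kits. With Pico its signals were 39.8, 14.1 and 75.1 in giant cells, against 480, 200 and 161 in control cells, a change of -2.32 (SE 0.64, limma adjusted p = 0.0465). With One-Direct they were 260, 823 and 315 in giant cells, against 122, 89.5 and 406 in control cells, a change of 1.21 (SE 0.64, limma adjusted p = 0.269). Giant cells lay below control cells throughout Pico, while the One-Direct groups overlapped. The Pico call was lost under 14 of 25 alternative settings, among them leaving out any single Pico sample. Its technical arrays spread widely, at 108, 170 and 892 in giant One-Direct sample 1 and at 493, 12.5 and 64.9 in control One-Direct sample 2.

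GSTU18 (AT1G10360) had signals of 11.8, 3.49 and 20.3 in giant cells and of 78.1, 232 and 71.4 in control cells with Pico, and of 75.1, 246 and 27.1 in giant cells and 53.8, 105 and 29.3 in control cells with One-Direct. The changes were -2.23 in Pico (limma adjusted p = 0.0552) and 0.48 in One-Direct (limma adjusted p = 0.678). GSTU25 (AT1G17180), known for the detoxification of foreign chemicals, and its neighbour GSTU26 (AT1G17190) had changes of -1.38 and -1.97 in Pico, at limma adjusted p of 0.354 and 0.226. GSTU21 (AT1G78360) had a change of -1.57 (limma adjusted p = 0.15) and GSTU16 (AT1G59700) one of -1.15 (limma adjusted p = 0.161), both in Pico. All giant samples of GSTU18, GSTU26, GSTU21 and GSTU16 lay below all control samples there, and none of the 4 passed in the main fit. With a weight per kit all 4 were called in Pico, against 15% of all probe sets. Their limma adjusted p was then 0.0054, 0.0428, 0.0193 and 0.0371 in that order. After quantile normalisation none of the 4 was called in Pico, against 2.93% of all probe sets. GSTU20 (AT1G78370) had a change of -0.60 in each kit and overlapping groups. GSTU15 (AT1G59670), by contrast, was above 0 in both kits, with changes of 1.30 in One-Direct and 0.90 in Pico, and 1.10 over both kits (limma adjusted p = 0.0717). Its signals with Pico were 34.4, 49.9 and 43.9 in giant cells, against 2.26, 24.6 and 25.2 in control cells, so the groups were apart at low signals.

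Among the P450s, CYP71B26 (AT3G26290, chromosome 3) had the lowest adjusted p. With Pico its signals were 12.9, 43.2 and 28.6 in giant cells, against 437, 1052 and 392 in control cells. In One-Direct they were 214, 168 and 84.9 in giant cells, against 261, 590 and 267 in control cells. Every giant sample lay below every control sample of its kit, which held for no other gene of the set in both kits. CYP71B26 fell by 2.47 over both kits (SE 0.36, limma adjusted p = 0.000819), a 5.53-fold lower signal. The change was -3.78 in Pico (SE 0.51, limma adjusted p = 0.000837) and -1.16 in One-Direct (SE 0.51, limma adjusted p = 0.195). The calls over both kits and in Pico held under every alternative setting that tested this gene.

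CYP71B37 (AT3G26330, chromosome 3) had signals with Pico of 141, 158 and 271 in giant cells, against 1188, 872 and 618 in control cells. With One-Direct its signals were 826, 226 and 246 in giant cells, against 358, 1103 and 1131 in control cells. The Pico groups were apart, and with One-Direct giant sample 1 lay above control sample 1. The change was -1.60 over both kits (SE 0.40, limma adjusted p = 0.0208), -2.14 in Pico (SE 0.57, limma adjusted p = 0.0403) and -1.06 in One-Direct (SE 0.57, limma adjusted p = 0.284). Over both kits the call was lost without giant One-Direct sample 2 or 3, giant Pico sample 1 or control Pico sample 1, at limma adjusted p of 0.0546 to 0.0587. In Pico it was lost under 10 of 26 alternative settings, including without any single Pico sample.

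CYP71B23 (AT3G26210, chromosome 3) was called in Pico alone. Its signals there were 8.21, 51.6 and 0.95 in giant cells, against 156, 192 and 116 in control cells, and the change was -2.47 (SE 0.62, limma adjusted p = 0.0307). The One-Direct signals were 315, 463 and 303 in giant cells, against 200, 113 and 704.5 in control cells, and the change was 0.45 (SE 0.62, limma adjusted p = 0.691). The Pico groups were apart and the One-Direct giant samples lay within the control range. The Pico call was lost without giant sample 1, giant sample 3 or any of the 3 control samples, at limma adjusted p of 0.0688 to 0.156. It was also lost with a pseudocount of 64 (change -1.40, limma adjusted p = 0.0872) and after quantile normalisation (change -2.32, limma adjusted p = 0.0727).

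A few P450s of known pathways were on the array. CYP79A2 (AT5G05260), which turns phenylalanine into the aldoxime precursor of benzylglucosinolate, had One-Direct signals of 145, 269 and 213 in giant cells, against 65.4, 85.7 and 30.2 in control cells. The One-Direct groups were apart, with a change of 1.59 (SE 0.46, limma adjusted p = 0.0647). With Pico its signals were 12.7, 8.45 and 18.1 in giant cells, against 28.6, 8.94 and 1.48 in control cells, a change of 0.10 at signals near the pseudocount. CYP71B6 (AT2G24180), which acts on indole-3-acetonitrile, had signals with Pico of 519, 633 and 542 in giant cells, against 1142, 1038 and 896 in control cells. With One-Direct they were 1247, 454 and 191 in giant cells, against 1981, 862 and 1184 in control cells. CYP71B6 was apart in Pico and overlapped in One-Direct, with a change of -1.10 over both kits (SE 0.39, limma adjusted p = 0.0835). CYP78A9 (AT3G61880), known for its part in fruit and seed growth, had a change of -0.72 over both kits (limma adjusted p = 0.394). CYP84A4 (AT5G04330), of arabidopyrone synthesis, had a change of -0.58 (limma adjusted p = 0.393). Of 81 genes listed for known P450 pathways, 3 were named on the array, CYP79A2, CYP71B6 and CYP78A9. None of the 3 was called by limma over both kits, against 11.7% of all probe sets. CYP79A2 and CYP71B6 passed an unadjusted limma p under 0.05, against 27.5% of all probe sets.

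The remaining CYP71B genes were not called in the main fit, in either kit or over both. Over both kits the highest changes were 1.24 for CYP71B22 (limma adjusted p = 0.12) and 1.18 for CYP71B5 (limma adjusted p = 0.103). CYP71B22 (AT3G26200) had One-Direct signals of 30.5, 378 and 293 in giant cells, against 30.8, 39.9 and 22.9 in control cells, so giant samples 2 and 3 lay well above the control samples and sample 1 did not. CYP71B5 (AT3G53280) had One-Direct signals of 162, 341 and 641 in giant cells, against 183, 112 and 32 in control cells, overlapping through giant sample 1. CYP71B34 (AT3G26300) and CYP71B35 (AT3G26310) had changes of -1.93 and -1.53 in Pico, at limma adjusted p of 0.148 and 0.18. With only the Pico samples fitted, their limma adjusted p was 0.00524 and 0.019, and 11.6% of all probe sets were called. With a weight per kit it was 0.0117 and 0.0211, and 15% of all probe sets were called in Pico. CYP71B34 had Pico signals of 59.9, 40.8 and 52.4 in giant cells, against 194, 264 and 261 in control cells, with no overlap. The One-Direct signals were 127, 165 and 103 in giant cells, against 7.83, 281 and 215 in control cells, so that control sample 1 was the lowest of all samples. Another 9 P450s had changes nearer to 0. They were CYP71B16 at 0.63, CYP71B21 at 0.31, CYP71B31 at 0.30, CYP71B28 at 0.28, CYP51G2 at 0.13, CYP71B24 at -0.02, CYP71B27 at -0.18, CYP71B29 at -0.40 and CYP71B38 at -0.63, with limma adjusted p of 0.206 to 0.977. In CYP71B24 all 12 signals lay between 2 and 37.1, and in the pseudogene CYP71B27 between 5.59 and 49.3. CYP71B21 had One-Direct signals of 46.5, 330 and 65.2 in giant cells, against 4.54, 20.5 and 57.9 in control cells, overlapping only through giant sample 1 and control sample 3. With Pico CYP71B21 had 13.5, 2.24 and 2.13 in giant cells, against 39.3, 15 and 34.4 in control cells, and these groups were apart at low signals.

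**Figure D2:**
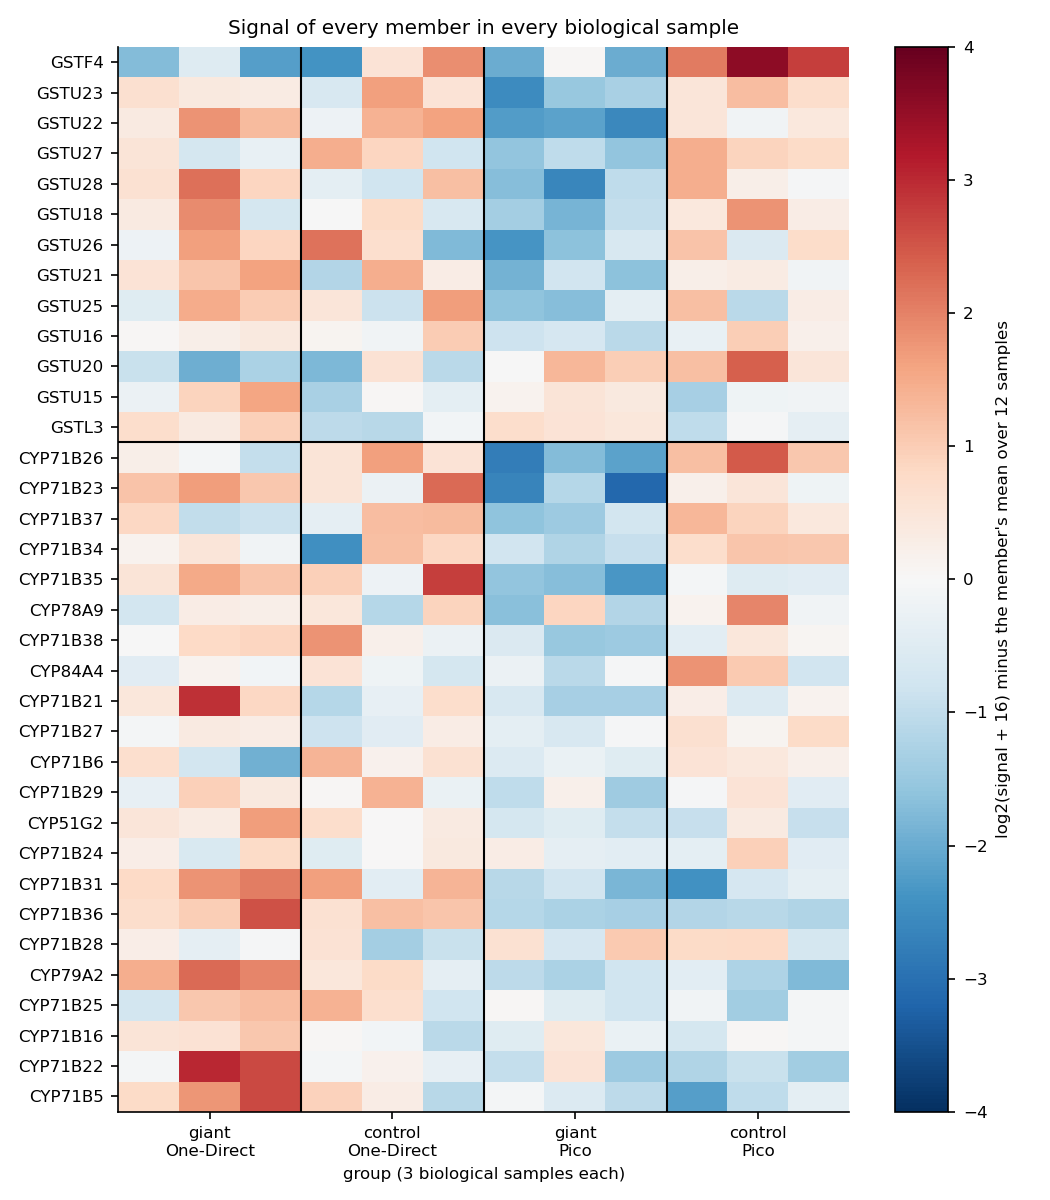
Heat map of the 35 genes by sample, as log2(signal + 16) minus the gene's mean over the 12 samples. Columns run giant and control cells with One-Direct, then giant and control cells with Pico. Of the 35 genes, 18 have all giant Pico samples below all control Pico samples, against 16% of all probe sets.

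In Pico alone 8 of the 35 genes were called, all lower in giant cells: GSTF4, CYP71B26, GSTU23, GSTU22, CYP71B23, GSTU27, GSTU28 and CYP71B37. Over all probe sets 5.79% were called in Pico, 4.6% lower and 1.19% higher. The median change of the 35 genes was -1.14, against 0.05 over all probe sets, and -1.97 for the GSTs. In 18 of the 35 genes every giant sample lay below every control sample, against 16% of all probe sets, and in 2 genes, GSTU15 and GSTL3, every giant sample lay above, against 18.3%. Leaving out single samples changed the count: 2 genes were called without giant Pico sample 1, 3 without giant Pico sample 3 and 4 without each of the 3 control Pico samples. The share of all probe sets called fell as well, from 5.79% to 2.64%, 2.79% and 3.21% to 3.87% in that order.

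In One-Direct alone 0 of the 35 genes were called by limma, against 3.5% of all probe sets (2.43% higher and 1.07% lower), and 9 (25.7%) passed an unadjusted p under 0.05, against 23.1% of all probe sets. The lowest limma adjusted p was 0.0647. The median change was 0.30, below the 0.43 of all probe sets, and it turned to -0.30 after quantile normalisation, to -0.19 after median centring, to -0.63 with the filter on the overall mean and to -0.03 without giant One-Direct sample 2. Giant samples lay all above control samples for GSTL3, CYP71B16 and CYP79A2, which is 3 of 35 genes against 15.7% of all probe sets. They lay all below for CYP71B26, 1 of 35 against 4.76%. In both kits together 1 gene was apart and lower, CYP71B26, against 3.07% of all probe sets, and 1 apart and higher, GSTL3, against 5.5%. None of the 35 was apart in opposite directions, against 0.677% lower in Pico and 0.136% higher in Pico. Without giant One-Direct sample 1 the calls were CYP71B6, CYP71B22 and CYP79A2, and with sample 1 left out of both groups of the kit CYP71B37 and CYP71B5 joined them. The shares of all probe sets called in these settings were 7.06% and 10.2%. Without control One-Direct sample 2 the single call was CYP79A2, and without control One-Direct sample 3 it was GSTL3, against 7.15% and 4.48% of all probe sets. Under 6 settings of scale, filter or model GSTL3 was the single call, against 3.29% to 6.56% of all probe sets.

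**Figure D3:**
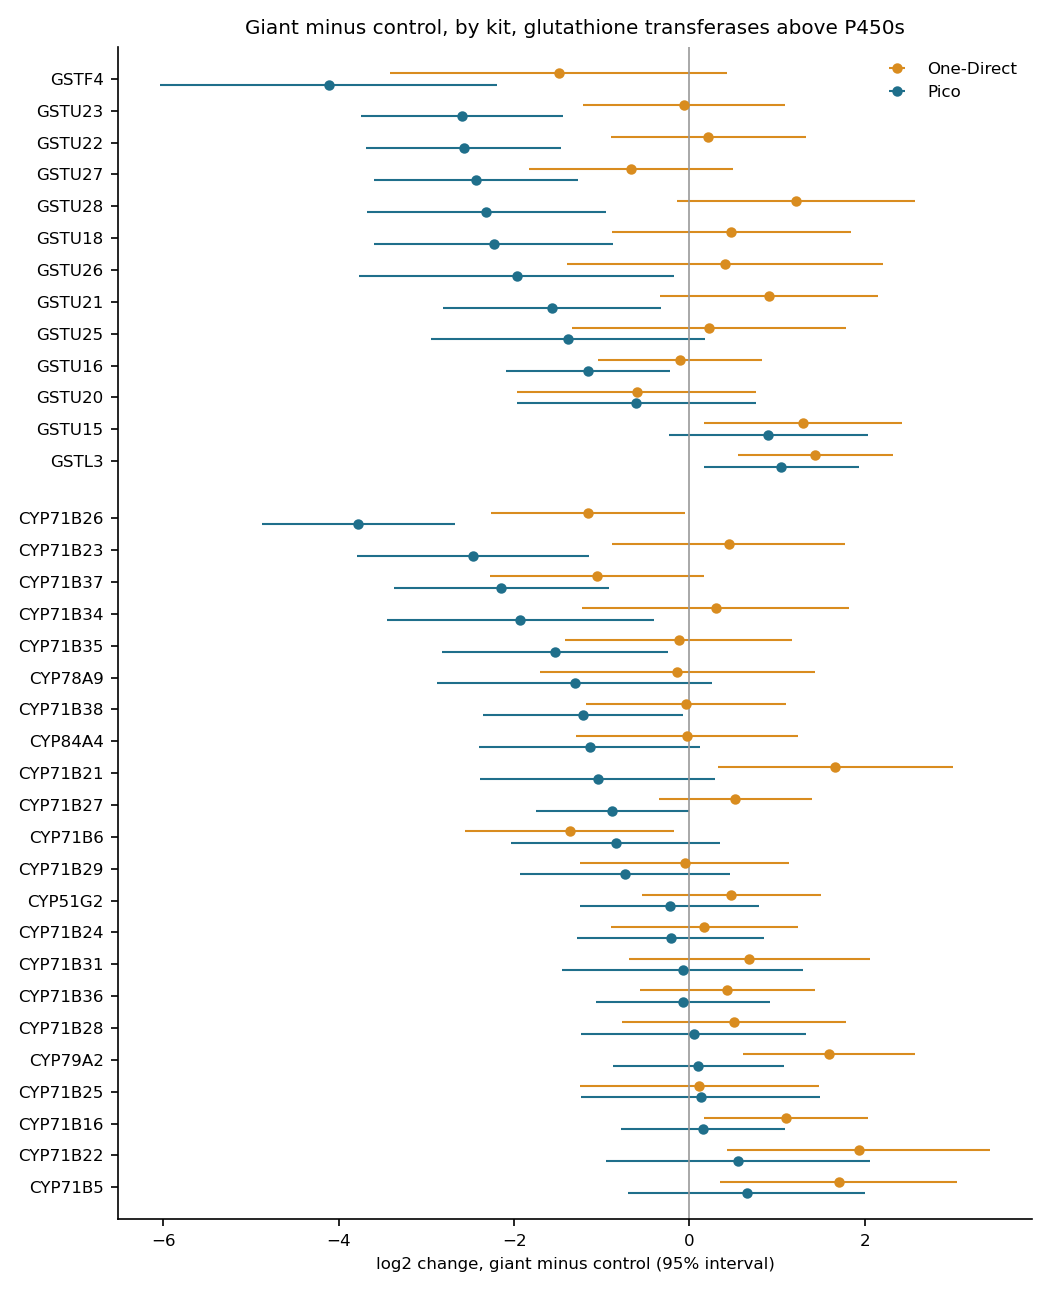
Change of each of the 35 genes, giant minus control cells in log2 units, with One-Direct drawn above Pico and 95% intervals from the fit. Of the 35 genes, 13 lie below 0 in both kits, 8 above 0 in both, and 14 below 0 in Pico and above 0 in One-Direct.

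The change lay below 0 in both kits for 13 of the 35 genes and above 0 in both for 8. For the other 14 it was below 0 in Pico and above 0 in One-Direct, and for 0 genes the reverse. Over all probe sets the shares were 20% below in both, 43% above in both, 27.4% below in Pico and above in One-Direct, and 9.57% the reverse. The difference between the changes in the kits, One-Direct minus Pico, was called for 0 of the 35 genes by limma, against 0% of all probe sets. At an unadjusted p under 0.05, 12 of the 35 genes (34.3%) passed, against 11.8% of all probe sets, each with a difference above 0. The count was 4 after quantile normalisation, 8 after median centring or with the first technical array only, 7 of 17 genes with the filter on the array median, 2 of 8 with the filter on the overall mean, 8 without giant Pico sample 1 and 19 with sample quality weights. The share of all probe sets that passed in these settings was not computed, so these counts cannot be set against the array at large. The largest difference was 3.53 for GSTU28 (SE 0.90, limma adjusted p = 0.148), and the median was 1.17 for the 35 genes, 2.38 for the GSTs, 1.10 for the P450s and 0.41 for all probe sets. After quantile normalisation the median of the 35 genes was 0.40, against -0.03 for all probe sets, and after median centring 0.61 against -0.15. With sample 1 left out of both groups of One-Direct, GSTU22 was called, with a difference of 2.62 (limma adjusted p = 0.0492). A change called in Pico and not in One-Direct is thus not shown to differ between the kits.

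The genes of a class lie in runs on the chromosomes, and neighbours did not always behave alike. On chromosome 3, 11 of the CYP71B genes lie between CYP71B16 and CYP71B37, a stretch of 25 genes. Their changes over both kits ran from -2.47 for CYP71B26 to 1.24 for CYP71B22, with 2 of the 11 called, against 11.7% of all probe sets. CYP71B25, next to CYP71B26 among the measured genes and with 1 gene between, had a change of 0.12 (limma adjusted p = 0.891). CYP71B25 was dim, above the array median in 0 of the 12 samples. CYP71B36 (AT3G26320), which adjoins CYP71B37, had a change of 0.18 (limma adjusted p = 0.767). Its Pico signals were 3.66, 2.08 and 1.34 in giant cells, against 2.95, 4.1 and 2.91 in control cells, so no difference could be read there.

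**Figure D4:**
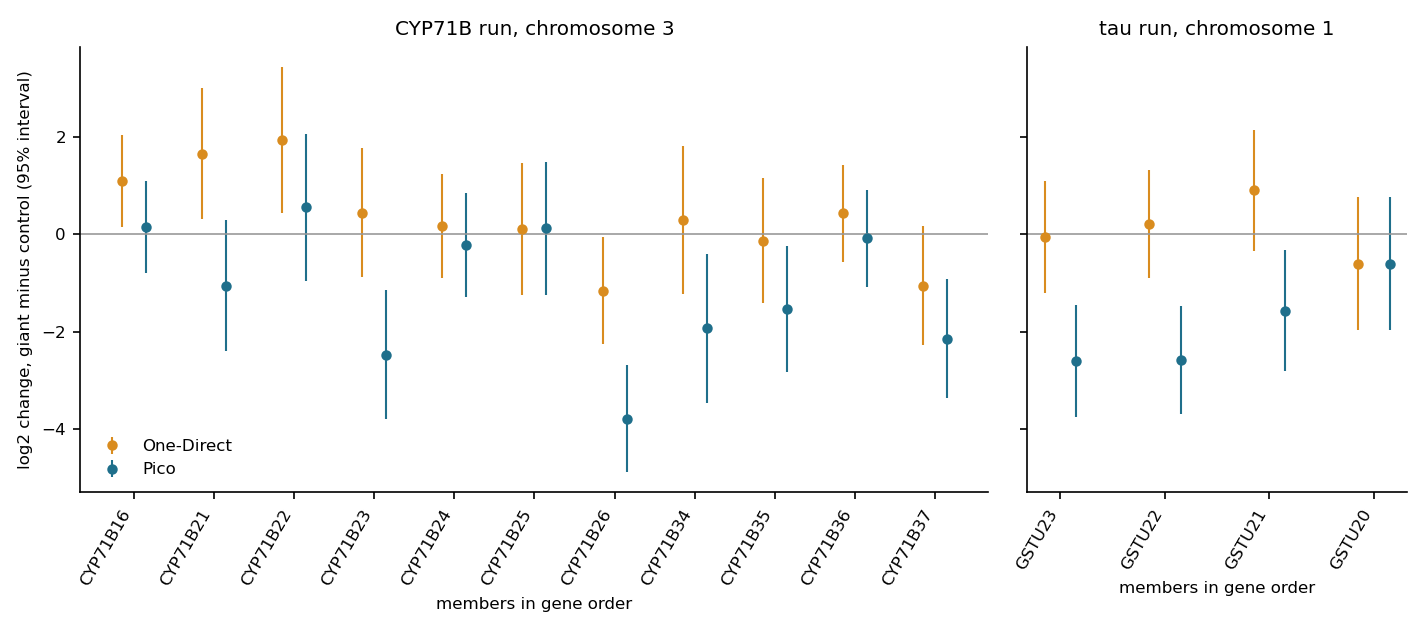
Changes in each kit, One-Direct beside Pico, giant minus control cells in log2 units with 95% intervals, along 2 runs of genes in chromosomal order. The CYP71B run on chromosome 3 holds 11 genes from CYP71B16 to CYP71B37. The tau run on chromosome 1 holds 4, GSTU23 to GSTU20, all below 0 in Pico, with 2 above and 2 below 0 in One-Direct.

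In the run of 4 tau genes on chromosome 1, GSTU23, GSTU22, GSTU21 and GSTU20 had changes of -1.33, -1.18, -0.33 and -0.60 over both kits. Only GSTU23 of the 4 was called, against 11.7% of all probe sets. GSTU20 stood out from the rest of the run by its kit difference. Its signals were 284, 126 and 214 in giant cells and 144, 800 and 246 in control cells with One-Direct, and 528, 1356 and 1073 in giant cells and 1256, 2872 and 763 in control cells with Pico. GSTU15 and GSTU16, with 3 genes between them, had changes of 1.10 and -0.63. All 35 probe sets carry the suffix that marks a design against a single transcript, but how far each also reads its close relatives was not tested.

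Between the kits, averaged over both cell types, 13 of the 35 genes were called, 12 higher and 1 lower with One-Direct, against 36.1% of all probe sets, 25.2% higher and 10.9% lower. The split moved with the scaling, to 6 higher and 4 lower after quantile normalisation and to 8 higher and 2 lower after median centring. Of the calls over all probe sets, 69.8% were higher with One-Direct, but 46.1% after quantile normalisation and 46.2% after median centring. The highest were CYP71B31 at 2.40 (SE 0.45, limma adjusted p = 0.00102), CYP71B36 at 2.39, CYP71B35 at 2.22, CYP79A2 at 2.18 and CYP71B23 at 2.15. The other 7 called higher were GSTU22, CYP71B22, CYP71B5, GSTU21, GSTU28, CYP51G2 and CYP71B38, at 1.14 to 2.06. GSTU20 was lower with One-Direct, with a change of -2.13 (SE 0.45, limma adjusted p = 0.00226). CYP71B36 had signals of 53.9, 69.2 and 239 in giant cells and 49.5, 84.1 and 78.1 in control cells with One-Direct, and of 1.34 to 3.66 in giant cells and 2.91 to 4.1 in control cells with Pico. The kit median of the 35 genes was 0.73, against 0.21 over all probe sets. It was 0.046 against -0.15 after quantile normalisation and 0.35 against -0.18 after median centring. A filter on the array median left 17 of the 35 genes to test, of which 5 were called, and a filter on the overall mean left 8, of which GSTU20 alone was called. Of all probe sets kept by these filters 34.3% and 29.1% were called, in that order. The calls of GSTU28, CYP71B38 and GSTU21 were lost under 13 of 23, 9 of 22 and 7 of 22 alternative settings in that order.

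The technical spread of the 35 genes was larger than that of all probe sets. Over 3 technical arrays the median SD of the 35 genes was 0.548 in giant and 0.929 in control cells with One-Direct, and 0.562 in giant and 0.393 in control cells with Pico. Over all probe sets it was 0.449, 0.702, 0.348 and 0.350 in the same order. The median SD between samples, from the first technical array of each, was 0.810, 0.948, 0.451 and 0.604 for the 35 genes in that order. For all probe sets it was 0.578, 0.789, 0.396 and 0.446. In giant cells with Pico the technical SD of the 35 genes thus lay above their SD between samples. The highest SD was 2.11, for GSTU28 in control cells with One-Direct.

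Of 49 partner genes of these enzymes (electron donors, glutathione synthesis and turnover, glutathione reduction, conjugate transport, TGA regulators), 2 were named on the array, both glutathione reductases. GR1, the cytosolic enzyme, had signals with Pico of 1919, 1799 and 1813 in giant cells, against 729, 1564 and 494 in control cells. The One-Direct signals were 924, 534 and 416 in giant cells, against 128, 560 and 174 in control cells. GR1 was apart in Pico and overlapped in One-Direct, with a change of 1.21 (SE 0.39, limma adjusted p = 0.0622). GR, the organellar enzyme, had a change of 0.16 (SE 0.31, limma adjusted p = 0.624). Neither gene was called, so 0 of 2 passed in either direction, against 11.7% of all probe sets. At an unadjusted limma p under 0.05, 1 of the 2 passed, against 27.5% of all probe sets.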

How the data were processed

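The authors deposited signal intensities, 1 per probe set and array, on a linear scale. Per the submitters' processing notes, they used Affymetrix Expression Console and MAS5. Which version, and which correction for background, is not given in the sources used here. Deposited signals had a trimmed mean near 500 on every array (2% trimmed at each end), and this scaling was kept. The 64 control probe sets of 22810 were left out of the tests. Technical arrays of a sample were averaged as log2(signal + 16), so fold changes understate those of dim probe sets. Of the remaining probe sets 13513 carried 1 gene in the array annotation, which can be old, 503 several, and 8730 were not listed. Names were matched to RefSeq (TAIR10.1) for all 35 genes. Means of the 4 groups were fitted with limma 3.58.1 in R 4.3.3 (lmFit, eBayes), two-sided, with no block and no filter on low signals, because a filter passed through 1 group favours genes that differ. The fit was tested on simulated data that gave each probe set the same spread in all groups. Such data cannot show how the fit deals with kits of unequal spread. The genes, lists and tests were chosen with earlier results of these data known. Genes called over both kits, up to the 5 most changed in each other contrast, all GSTs and P450s of listed pathways are named by rule; further P450s, and the other calls in Pico and between kits, were named after their values were seen. Alternatives covered the pseudocount, filters, scaling, technical arrays, the model and leaving out samples. The number of arrays limits the precision. Probe sequences are not analysed here.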

Additional observations from a re-analysis of the deposited data

How the results depend on the processing

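Of the 6 calls over both kits, GSTF4, CYP71B26 and GSTL3 held under every alternative setting that tested them, while those of GSTU27, CYP71B37 and GSTU23 were lost under 4, 5 and 11 of 25. No called gene turned sign, and of the 29 uncalled genes 7 turned sign and 6 were called under at least 1 setting. The 6 calls over both kits became 10 with sample quality weights and 12 with sample 1 left out of both groups of One-Direct, and leaving out single samples gave 3 to 9. Over all probe sets the share called over both kits was 11.7% in the main fit, and 19.5% and 18% in those settings in that order. With single samples left out the share was 6.69% to 15.1%. The 8 calls in Pico became 4 with the filter on the overall mean, which left 8 genes to test, 5 with quantile normalisation, 16 with sample quality weights and 15 with a weight per kit, and 2 to 11 with single samples left out. The share of all probe sets called in Pico moved from 5.79% to 9.1%, 2.93%, 18.7% and 15% in the same order. With single samples left out it was 2.64% to 9.25%. The 0 calls in One-Direct became 1 with a pseudocount of 64, either filter, quantile normalisation, technical arrays as a random block, or a trended and robust prior, 5 with sample 1 left out of both its groups, and 0 to 3 with single samples left out. Of all probe sets 3.5% were called in One-Direct in the main fit. The share was 3.29% to 6.56% in the settings with 1 call, 10.2% with sample 1 left out of both groups, and 0.281% to 7.15% with single samples left out. The 0 calls for the difference between kits became 1 with sample 1 left out of both groups of One-Direct and stayed at 0 with every single sample left out. The share of all probe sets called for the difference was 0.8% in the first case and 0% to 0.29% in the second. The 13 calls between the kits became 5 with the filter on the array median and 1 with the filter on the overall mean, and 10 to 16 with single samples left out. Of all probe sets 36.1% were called between the kits in the main fit, 34.3% and 29.1% with the filters, and 30.1% to 39.2% with single samples left out. Where no cause follows from fewer genes or samples, the cause was not tested. Same-numbered samples deviated from their group means with correlations of -0.086 to 0.014, and 2 of 12 samples correlated best with their own number. No pairing by number was thus visible in the signals. A correlation over all probe sets mixes every source of spread. It cannot decide whether same-numbered samples came from the same plants, which the labels do not say. With the replicate block, 5 genes were called over both kits (GSTU22 came in, GSTU23 and CYP71B37 went out), 7 in Pico, 0 in One-Direct and 0 for the difference. Of all probe sets 9.4%, 4.73%, 1.88% and 0% were called with the block in the same order. The kit contrast could not be fitted with the block. Over all probe sets the share of calls over both kits that were higher in giant cells was 52.1%, but 37.7% after quantile normalisation and 31.4% after median centring, and in One-Direct 69.5%, 36.6% and 23.2% in that order. The median change of the 35 genes ran from -1.21 with the filter on the overall mean to -0.32 with a pseudocount of 64 over both kits, and in Pico from -1.97 with the filter on the array median to -0.70 with a pseudocount of 64. Over all probe sets the number called over both kits ran from 1521 without giant Pico sample 3 to 4445 with sample quality weights, against 2659, and in One-Direct from 0 with only the compared samples fitted, or 7 with a weight per kit, to 2314 with sample 1 left out of both its groups, against 796. Dim signals limit what can be read: 28 of 105 values in giant cells and 38 of 105 in control cells with One-Direct, and 19 and 41 of 105 with Pico, lay above the array median.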

Other observations

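The array held 2 further probe sets that list several genes, of which at least 1 has a P450 name, and these were not counted among the 35. The probe set shared by CYP71B19 and CYP71B20 had One-Direct signals of 163, 143 and 344 in giant cells, against 5.44, 283 and 40.5 in control cells. With Pico its signals were 45.9, 6.57 and 59.6 in giant cells, against 4.56, 245 and 85.3 in control cells. The groups overlapped in both kits, and the change over both kits was 0.41 (limma adjusted p = 0.735). The probe set shared by CYP79C2 and AT1G58265 had a change of 0.81 over both kits (limma adjusted p = 0.249). Its One-Direct signals were 32.2, 123 and 134 in giant cells, against 59.5, 18.6 and 6.58 in control cells, and these groups overlapped as well.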
